A study of Sus scrofa with 2 samples.

Results

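Blood-derived barcodes of pig antral follicles fell into leukocytes and red cells, which were picked from all deposited barcodes by their own counts. A barcode was taken as a leukocyte when it held at least 10 unique molecular identifiers (UMIs, each standing for 1 captured RNA molecule) over AIF1, PTPRC, TYROBP, CD68, C1QA, C1QB, C1QC and LAPTM5, with at least 3 of these 8 genes detected. A red cell was a barcode with over 50% of its UMIs from HBB. Of 29837 barcodes, 24 were leukocytes, 43 were red cells, none was both, and 29770 were of neither kind. Because these counts chose the members, everything below is a description of the same counts, with no test.

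The barcodes came from the somatic cells of 2 healthy antral follicles over 7 mm wide, AF75 and AF76, from 1 pubertal Landrace × Yorkshire pig of 210 days that had received pregnant mare serum gonadotropin. No gene was altered, both follicles had the same treatment, and no control follicle is analysed here. Follicles were punctured and flushed, and the fluid and flushed granulosa cells were pelleted. The methods name no sort and no lysis of red cells. Each follicle gave 1 library, and values in parentheses after an estimate are 95% intervals that cover counting error only.

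The granulosa layer of an antral follicle holds no blood vessels of its own before ovulation, and its capillaries end in the theca outside the basement membrane. Leukocytes of the ovary are mostly macrophages, which take up dead cells and old red cells, recycle heme iron and make the complement subunits of C1q. A mammalian red cell sheds its nucleus, and the young red cell, the reticulocyte, keeps messenger RNA for hemoglobin and a few other proteins for a short time. Hemoglobin holds pairs of alpha-type and beta-type chains, and HBB encodes the adult beta chain.

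Leukocytes made up 4 of the 14289 AF75 barcodes (0.0280%, 0.00763–0.0717) and 20 of the 15548 AF76 barcodes (0.129%, 0.0786–0.199). Red cells made up 8 AF75 barcodes (0.0560%, 0.0242–0.110) and 35 AF76 barcodes (0.225%, 0.157–0.313). Both kinds thus had a larger share in the AF76 library. The intervals cover counting error within a library and not the spread between follicles. With 1 library per follicle no test between follicles could be made. The libraries had 56 barcode sequences in common, and no member was among them.

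The 24 leukocytes held 259645 UMIs, 501 to 93850 per barcode with a median of 6672, and 327 to 7695 genes with a median of 2360. The 43 red cells held 171200 UMIs, 698 to 9429 per barcode with a median of 3659, but only 125 to 674 genes with a median of 231. In barcodes of neither kind the medians were 8767 UMIs and 2719.5 genes. Thinned to 500 UMIs each, which no barcode fell short of, leukocytes had a median of 352.5 genes, barcodes of neither kind 360, and red cells 53. HBB fills over 50% of a red cell by the rule, which bears on that value. Thinned instead to 100 UMIs outside the named globins and ENSSSCG00000007978, the medians were 82 genes in red cells, 88.5 in leukocytes and 89 in barcodes of neither kind. Of the leukocytes 11 had 2000 to 5000 genes with less than 7% mitochondrial UMIs, the limits that the study set for its cells, whereas all 43 red cells had fewer than 2000 genes.

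Near the limits, 7 leukocytes had 10 to 12 UMIs of the 8 genes, and 12 barcodes of neither kind had 7 to 9. Red cells numbered 6 with HBB between 50.03% and 54.1% of their UMIs, and 5 barcodes of neither kind lay between 45.7% and 49.9%. The plot of HBB share against depth shows how far the red cells stood from most barcodes.

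**Figure D1:**
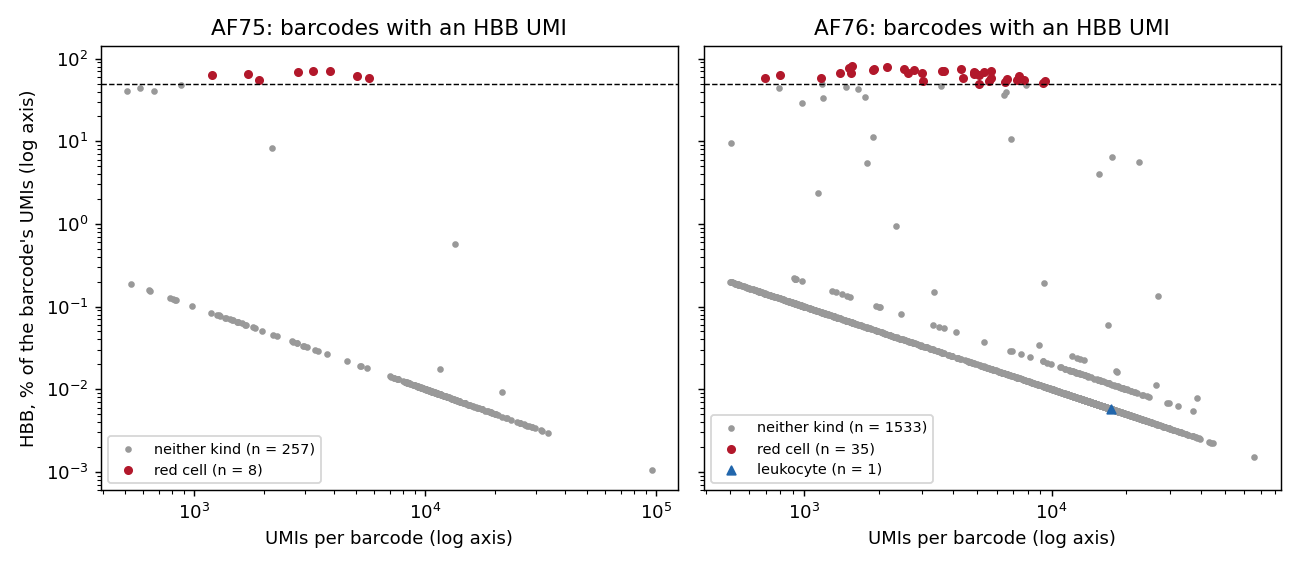
HBB as a percentage of a barcode's UMIs (log axis) against its UMIs (log axis), for the barcodes of AF75 (left) and AF76 (right) with an HBB UMI; the dashed line is 50%. The 8 and 35 red cells lie above the line, 15 barcodes lie between 25% and 50%, and most others lie on the lower diagonals of 1 or 2 HBB UMIs.

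Red cells were dominated by HBB, which took 50.03% to 81.2% of their UMIs with a median of 65.8%, as the rule required at least in part. HBB lies on the minus strand at chr9:4800683-4801941 of Sscrofa11.1. The second most abundant transcript had no symbol in the files or the reference tables and is given by its identifier, ENSSSCG00000007978. It held 44706 UMIs in red cells and was found in 43 of 43, at 4.49% to 40.6% of a barcode's UMIs with a median of 20.2%. HBB and this transcript together made up 68.1% to 94.3% of the UMIs of a red cell, and at least 80% in 35 of them. Outside the red cells it had 8148 UMIs over 29770 barcodes of neither kind, and none in the leukocytes.

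Of the other globin genes, HBM, which encodes the mu chain of the alpha-type family, had 377 UMIs in 42 red cells, at 0 to 46 per barcode with a median of 7. HBQ1, the theta chain gene, had 6 UMIs in 5 red cells. The embryonic globin genes HBE1 and HBZ had none, where a floor of 3 counts stands for what a count of 0 allows. The only HBE1 UMIs of the series, 5 in number, lay in 1 AF75 barcode with HBB between 5% and 25% of its UMIs, and the only HBZ UMI lay in AF75 outside the red cells. Among the named globins HBB thus came first, then HBM and, far below, HBQ1.

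Genes besides the named globins were compared as counts per 1000000 UMIs (CPM), summed over the barcodes of a kind, with the named globin genes left out of the totals. A gene was compared when a kind had, or would be expected to have from its level in barcodes of neither kind, at least 20 UMIs, and the 8 leukocyte genes and the globins were not compared. A ratio past 4-fold was the size taken as a difference. In red cells 509 genes were compared, 9 of them were over 4-fold higher than in barcodes of neither kind (1.77%) and 272 over 4-fold lower (53.4%), with a median ratio of 0.240. These counts turned on ENSSSCG00000007978, which held most of the UMIs left. With it left out of the totals as well, every ratio in red cells rose by the same factor, 187 genes were compared, 15 were over 4-fold higher (8.02%), 2 were over 4-fold lower (1.07%), and the median ratio was 1.07. The number of 4-fold calls thus depended on that total. The same 2 lower genes and 8 of the 9 higher genes were called under both. The remaining higher gene was ENSSSCG00000007978 itself, which was not compared once left out. A gene rare outside could be compared only through its own UMIs in the red cells and then had to be higher, as held for 10 of the 509 genes. With ENSSSCG00000007978 left out this held for 24 of the 187. Among the other 163, 3 were over 4-fold higher (1.84%) and 2 lower (1.23%).

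ALAS2, AHSP and SNCG were among the genes of largest ratio. All 3 were compared through their red cell UMIs alone and so had to be higher. ALAS2, the erythroid enzyme of the first step of heme synthesis, had 159 UMIs in 24 red cells and 23 UMIs in all barcodes of neither kind, 2468 against 0.0911 CPM, a ratio of 27082 (17424–43960.5). AHSP, a chaperone of free alpha globin chains, had 167 UMIs in 31 red cells against 46 outside, a ratio of 14223 (10208–20167). SNCG, a member of the synuclein family, had 211 UMIs in 34 red cells against 153 outside, a ratio of 5403 (4367–6697). By follicle, AF75 and AF76 red cells had 22 and 137 UMIs of ALAS2, 19 and 148 of AHSP, and 31 and 180 of SNCG, so all 3 were seen in both libraries. No leukocyte had a UMI of ALAS2, AHSP or SNCG.

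Below these came TENT5C, which encodes a noncanonical poly(A) polymerase, at a ratio of 27.1 (19.0–37.3), and GPX1, a glutathione peroxidase, at 19.1 (14.3–24.9). SLC25A39, a carrier of the inner mitochondrial membrane, was at 12.3 (8.07–17.8). ATP5IF1, the inhibitor of the mitochondrial ATP synthase and a known need of heme synthesis, had 308 UMIs in 42 of 43 red cells, at 0 to 22 per barcode with a median of 5, and a ratio of 10.5 (9.39–11.8). FTL, the light chain of ferritin, which stores iron, was at 3.88 (3.28–4.56), or 12.7 with ENSSSCG00000007978 left out. In the same way the ratio of NCOA4, the receptor that sends ferritin to lysosomes, went from 1.75 to 5.73. That of GABARAPL2, an autophagy protein, went from 1.84 to 6.01, and that of ATP5F1E, a subunit of the ATP synthase, from 2.44 to 7.97. TENT5C, GPX1, SLC25A39, NCOA4 and GABARAPL2 were compared through their red cell UMIs alone and so had to be higher. With ENSSSCG00000007978 left out the same held for FTL and ATP5IF1.

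PYY, the gene of the gut hormone peptide YY, had a ratio of 16323 (6537–48654), but its 25 UMIs came from 5 red cells, 17 of them from 1 AF75 barcode and 1 to 3 from each of 4 AF76 barcodes. Barcodes of neither kind had 6 PYY UMIs, so PYY too was compared through its red cell UMIs alone and had to be higher. Its ratio rested mainly on 1 red cell.

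**Figure D2:**
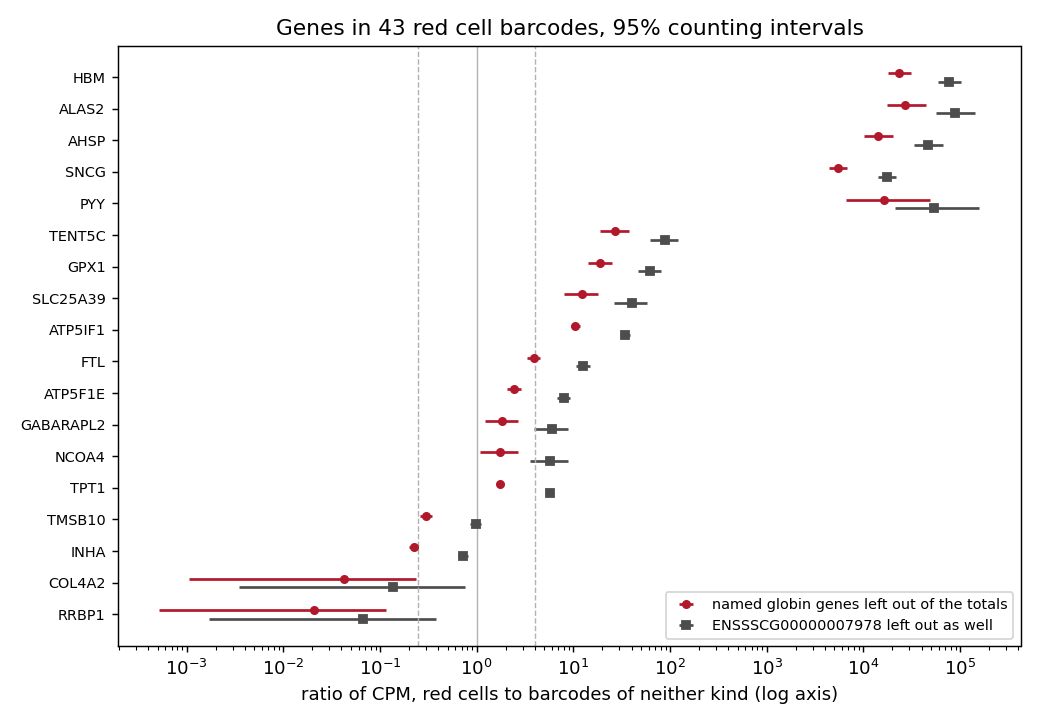
Ratio of CPM in 43 red cells to CPM in barcodes of neither kind (log axis) for 18 genes named in the text, with 95% counting intervals; circles leave the named globin genes out of the totals and squares leave out ENSSSCG00000007978 as well. HBM, ALAS2, AHSP, SNCG and PYY lie above 5000 with either total, whereas INHA goes from 0.223 to 0.729 and TMSB10 from 0.299 to 0.976.

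By list, the 12 matched genes of heme synthesis and mitochondrial iron together had 3105 CPM in red cells against 359 in barcodes of neither kind, and the 22 matched late erythroid genes 3803 against 569. In each list 2 genes were compared, ALAS2 and SLC25A39 and then AHSP and TENT5C, and all 4 passed by their red cell UMIs alone and so had to be higher. HEMGN, a late erythroid nuclear protein, had only 7 UMIs in 5 red cells against 410 outside and was not compared. Genes of the red cell membrane and its skeleton were rare: the 18 matched genes had 32 UMIs in 16 red cells, 12 of them were at 0, and SLC4A1, the band 3 anion exchanger, was among those at 0. TFRC, the transferrin receptor of immature red cells, was at 0 too, and at this depth its level outside, 23.3 CPM, would not have been detectable either. Of the red cell enzymes 3 of 6 compared genes, SOD1, ENO1 and GAPDH, were over 4-fold lower with the totals as set, close to the 53.4% of all genes, and none of the enzymes was lower with ENSSSCG00000007978 left out.

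The promoters of HBB, HBM, AHSP, ALAS2 and SNCG are shown because these genes were high together in red cells. Each line gives the 150 bases before the RefSeq start of the gene on Sscrofa11.1, 5′ to 3′ on the gene's strand, with capitals for matches on either strand to the motif CCAAT, the motif CACCC, the motif TATAA, the motif GATAA or the motif GAGGAA.
HBB, chr9:4801942-4802091, minus strand: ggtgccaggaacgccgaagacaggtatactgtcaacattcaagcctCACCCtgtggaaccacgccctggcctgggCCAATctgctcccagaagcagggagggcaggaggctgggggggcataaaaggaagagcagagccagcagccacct
HBM, chr3:41490111-41490260, minus strand: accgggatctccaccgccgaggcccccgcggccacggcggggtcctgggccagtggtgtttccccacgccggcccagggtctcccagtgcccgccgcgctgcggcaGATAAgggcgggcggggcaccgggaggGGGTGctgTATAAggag
AHSP, chr3:17060344-17060493, minus strand: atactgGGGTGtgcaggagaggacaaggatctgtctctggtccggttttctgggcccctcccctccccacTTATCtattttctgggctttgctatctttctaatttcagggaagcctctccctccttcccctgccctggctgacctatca
ALAS2, chrX:47896042-47896191, minus strand: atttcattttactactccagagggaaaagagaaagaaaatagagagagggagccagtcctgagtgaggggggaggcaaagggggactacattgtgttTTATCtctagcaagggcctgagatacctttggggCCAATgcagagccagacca
SNCG, chr14:87916203-87916352, plus strand: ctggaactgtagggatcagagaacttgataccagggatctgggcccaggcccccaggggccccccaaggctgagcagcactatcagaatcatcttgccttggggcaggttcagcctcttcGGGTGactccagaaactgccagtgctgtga

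GATAA, the core of the site of GATA factors, was matched in HBM, AHSP and ALAS2, from 44, 80 and 53 bases before the start, and not in the HBB or SNCG window. CACCC, the core of the site of erythroid Krüppel-like factors, was matched in HBB, HBM, AHSP and SNCG, and CCAAT in HBB and ALAS2. Over the windows of the same length before 20653 protein-coding genes, GATAA was found in 11.3%, CACCC in 37.8%, CCAAT in 23.0%, TATAA in 11.3% and GAGGAA in 13.4%. No matches overlapped in these 5 windows, and a match is a run of letters and not a measured binding site.

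Red cells differed among themselves in the balance of their 2 main transcripts. ENSSSCG00000007978 had from 0.0552 to 0.787 UMIs per HBB UMI, with a median of 0.301, and the medians were 0.285 in the 8 AF75 and 0.327 in the 35 AF76 red cells. Across the 43 barcodes the ratio went with the number of UMIs (Spearman's rho 0.76) and with the share of AHSP, ALAS2 and SNCG among the UMIs outside the named globins and ENSSSCG00000007978 (rho 0.72). Within follicles rho with UMIs was 0.74 in AF75 and 0.77 in AF76, and rho with the 3 genes 0.67 and 0.73. Points of a follicle share a library and a pool of free RNA, all were held above 50% HBB by the rule, and the ratio fell with the HBB share (rho −0.78), so these values are descriptions.

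The ends of this range show the pattern. The 11 red cells with at least 0.5 UMIs of ENSSSCG00000007978 per HBB UMI, 2 of them from AF75, each had 6 to 71 UMIs of AHSP, ALAS2 and SNCG together, and 1910 or more UMIs in all. The 6 red cells with no UMI of these 3 genes had ratios of 0.0552 to 0.248, but only 797 to 2172 UMIs, of which 171 to 368 lay outside the named globins and ENSSSCG00000007978. Near the top, the AF76 barcode with most UMIs, 9429, had a ratio of 0.763 with 46 UMIs of HBM, 32 of AHSP, 13 of ALAS2 and 19 of SNCG. At the bottom, an AF76 barcode of 1560 UMIs with the highest HBB share, 81.2%, had a ratio of 0.0552, 6 UMIs of HBM and none of the 3 genes.

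**Figure D3:**
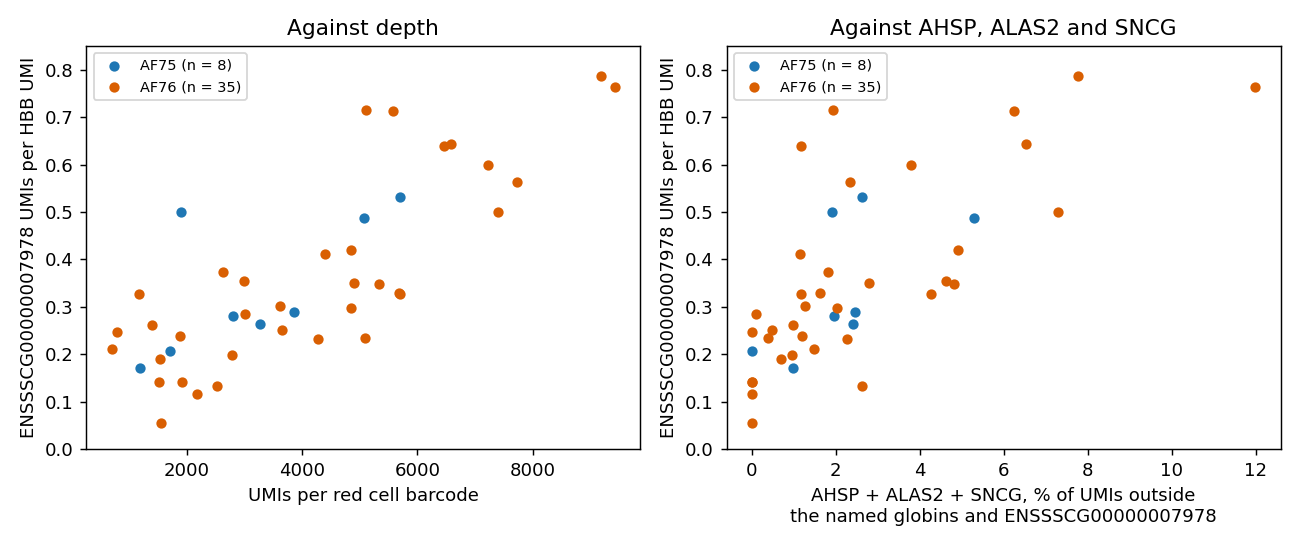
UMIs of ENSSSCG00000007978 per HBB UMI in each of 43 red cells, against UMIs per barcode (left) and against the percentage of AHSP, ALAS2 and SNCG among UMIs outside the named globins and ENSSSCG00000007978 (right), by follicle. The ratio runs from 0.0552 to 0.787 and is highest in barcodes of many UMIs.

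Granulosa genes were present in every red cell, and 11 of 13 compared were over 4-fold lower with the totals as set, against 53.4% of all genes. With ENSSSCG00000007978 left out, 0 of 9 compared were. INHA, the inhibin alpha subunit and the gene with most UMIs of the list, had 298 UMIs in 43 of 43 red cells, at 1 to 33 per barcode with a median of 5. The list of 21 matched granulosa genes made up 0.896% of the UMIs outside the named globins in red cells against 4.42% in barcodes of neither kind. With ENSSSCG00000007978 left out as well the share in red cells was 2.93%, with 0.980% to 6.91% per barcode and a median of 2.75%. On the same total, ribosomal protein genes took 12.03% in red cells and 9.92% in barcodes of neither kind. Mitochondrial genes took 5.63% against 3.28%, but 512 of the 1109 mitochondrial UMIs of red cells came from 1 AF76 barcode, and the share was 3.18% without it. Thus, outside HBB, HBM, ENSSSCG00000007978 and the genes above, the shares of these gene groups in red cells lay nearer to those of the other barcodes. The part of free RNA in them was not tested.

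**Figure D4:**
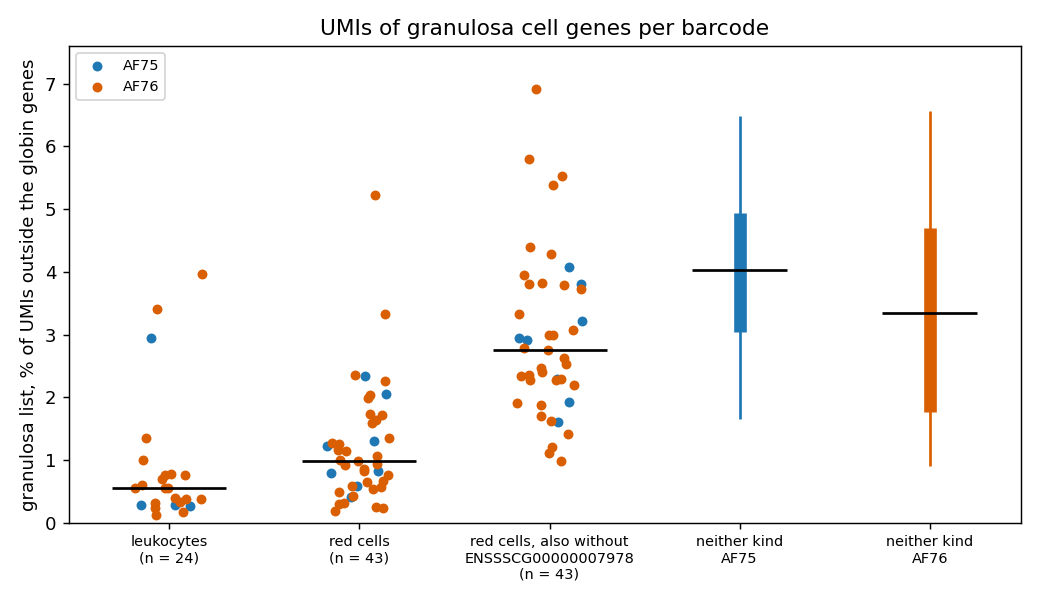
Granulosa list as a percentage of the UMIs outside the named globin genes, for each leukocyte and red cell by follicle, with black lines at the medians (0.548% and 0.977%, and 2.75% for red cells with ENSSSCG00000007978 left out as well). Barcodes of neither kind are drawn as the 5th to 95th percentiles (thin), the 25th to 75th (thick) and the median of each follicle.

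The genes of lowest ratio in red cells, among those of at least 200 CPM outside, were SPCS1, a signal peptidase subunit, RRBP1, a ribosome receptor of the endoplasmic reticulum, ADGRA3, an adhesion receptor, COL4A2, a chain of basement membrane collagen, and MAN1A1, a mannosidase of the Golgi. SPCS1 had 0 UMIs in red cells, which with 3 counts as the floor put its level at 0.138 or less of the 338 CPM outside, and the other 4 had 1 UMI each. RRBP1 had a ratio of 0.0207 (0.000523–0.115), or 0.0675 with ENSSSCG00000007978 left out. Leukocyte genes were near 0: the red cells held 6 UMIs of the 8 leukocyte genes, 4 of them PTPRC UMIs of 1 AF76 barcode that also had 4 UMIs of the neutrophil list. No UMI of the T cell, cytotoxic or B cell lists was found in a red cell, and the endothelial list had 1. Of the lysosomal and lipid genes 6 of 7 compared were over 4-fold lower with the totals as set, against 53.4% of all genes, and 0 of 2 with ENSSSCG00000007978 left out. No compared iron or mitochondrial gene was over 4-fold lower with either total.

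The red cells, chosen by HBB, held 106397 of its UMIs, 83.2% of all. A further 11.8% lay in 15 barcodes with HBB between 25% and 50% and 2.89% in 7 barcodes between 5% and 25%. The other 29772 barcodes, leukocytes among them, had 2706 HBB UMIs, 2.12% of all. Their level was 10.7 CPM (10.31–11.13), with 2.63 CPM (2.36–2.93) in AF75 and 18.7 CPM (17.9–19.4) in AF76. The follicle with more red cells thus also had more HBB in its other barcodes, in 2 libraries with no replicate.

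An HBB UMI was seen in 252 of these AF75 barcodes (1.77%) and 1517 of these AF76 barcodes (9.79%), at median depths of 9492 and 6173.5 UMIs. Thinned to 500 UMIs per barcode the shares were 0.140% (0.0856–0.216) and 1.56% (1.37–1.76). Of the leukocytes, which should lack HBB, 1 of 24 had an HBB UMI (4.17%, 0.105–21.1). At this depth HBB in the leukocytes, 3.85 CPM (0.0975–21.5), could not be told from that in the other barcodes with little HBB.

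The ratios between globin transcripts were compared by HBB share. HBM had 0.354 UMIs per 100 HBB UMIs (0.319–0.392) in red cells, 0.284 (0.205–0.383) in barcodes of 25% to 50% HBB, 0.271 (0.130–0.499) at 5% to 25% and 0.370 (0.177–0.681) below 5%, and these intervals overlapped. ENSSSCG00000007978 did not keep its ratio: it had 0.420 UMIs per HBB UMI (0.416–0.425) in red cells, 0.378 (0.366–0.389) and 0.123 (0.111–0.135) in the next 2 groups, and 0.731 (0.689–0.775) below 5%. In barcodes below 5% HBB the value was 2.14 (1.88–2.45) in AF75, above that of any red cell, and 0.535 (0.499–0.572) in AF76. ALAS2 by contrast had 2 UMIs below 5% HBB, and AHSP 30.

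The leukocytes had all 8 genes of the rule between them, in uneven parts. TYROBP, an adaptor of activating receptors, and LAPTM5, a lysosomal membrane protein of blood cells, were each found in 22 of 24, PTPRC, the pan-leukocyte phosphatase CD45, in 17, AIF1, an actin-binding protein of macrophages, in 16 and CD68, a lysosomal glycoprotein, in 10. The C1q subunit genes C1QA, C1QB and C1QC were found in 13, 13 and 12. All 8 genes were detected in 7 leukocytes, and 3 or 4 in 13. Outside the leukocytes the same genes were found in few barcodes, from 24 for PTPRC (0.0806%) to 419 for CD68 (1.41%), with AIF1 in 228 (0.766%).

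C1QA, C1QC and C1QB stand side by side on the plus strand of chromosome 6, at chr6:80586259-80589213, chr6:80592591-80597464 and chr6:80601680-80606076, and were high in the same barcodes. Their upstream windows, with the same build, length and capitals as above, are shown for this reason.
C1QA, chr6:80586109-80586258, plus strand: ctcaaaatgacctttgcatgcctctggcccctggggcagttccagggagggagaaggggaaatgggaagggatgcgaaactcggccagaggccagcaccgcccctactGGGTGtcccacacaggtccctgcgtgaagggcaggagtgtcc
C1QC, chr6:80592441-80592590, plus strand: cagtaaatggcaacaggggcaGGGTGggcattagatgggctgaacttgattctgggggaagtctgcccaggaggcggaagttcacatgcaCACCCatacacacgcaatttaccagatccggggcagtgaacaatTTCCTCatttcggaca
C1QB, chr6:80601530-80601679, plus strand: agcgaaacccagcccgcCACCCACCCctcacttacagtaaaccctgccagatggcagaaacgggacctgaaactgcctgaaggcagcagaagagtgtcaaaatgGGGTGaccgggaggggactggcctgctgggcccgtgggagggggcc

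All 3 windows held CACCC, which 37.8% of all windows do, in C1QB as an overlapping pair and 1 more match. GAGGAA, the core of the site of PU.1, the factor encoded by SPI1, was matched in the C1QC window only, from 16 bases before the start on the other strand. SPI1 itself had 84 UMIs in 16 leukocytes, a ratio of 70.8 (56.0–88.3), and was compared through these UMIs alone, so it had to be higher.

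Over 2749 genes compared, 357 were over 4-fold higher in leukocytes than in barcodes of neither kind (13%) and 231 over 4-fold lower (8.4%), with a median ratio of 0.987. Of these genes 694 were compared through their leukocyte UMIs alone, and a gene rare outside that passed in this way had to be higher. Among the other 2055, 18 were over 4-fold higher and 231 lower. Depth was uneven: 2 AF75 barcodes of 30155 and 93850 UMIs held 47.8% of all leukocyte UMIs, and the larger alone held 36.1%. Without the larger, 196 of 1736 genes compared were higher and 102 lower (5.88%), and without both, 146 of 1417 were higher and 70 lower (4.94%). Of the genes called without both, 136 were among the 357 and 65 among the 231. Each large barcode had more genes, 5316 and 7695, than any other leukocyte.

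General leukocyte genes, beside the rule genes, had a UMI in all 24, but at least 3 of them were found in only 19. The AF76 barcode of 14886 UMIs had 1 UMI of this list. The 15 matched members together had 5065 CPM in leukocytes and 37.6 CPM in barcodes of neither kind. The 12 that were compared passed by their UMIs in leukocytes alone and so had to be higher. FCER1G, the common chain of Fc receptors, had 272 UMIs in 19 leukocytes, a ratio of 1574 (1294–1919), and SRGN, the proteoglycan core of secretory granules, had 329 UMIs in 17, a ratio of 2710 (2190–3373). LCP1, the leukocyte actin bundler L-plastin, was at 1964 (1381–2825). The 22 matched macrophage and monocyte genes together had 8893 CPM against 33.3, and the 15 compared likewise passed by their leukocyte UMIs alone. CSF1R, the receptor for the macrophage growth factor CSF1, had 117 UMIs in 12 leukocytes, 64 of them from AF75 and 53 from AF76, a ratio of 4062 (2670–6374). CD163, the scavenger receptor for hemoglobin bound to haptoglobin, had 125 UMIs in 11 leukocytes, a ratio of 9346 (5271–18043).

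By contrast 14 of 15 compared granulosa genes were over 4-fold lower and none was higher, and all 15 were compared by their level outside. Of all 2055 genes compared in that way, 11.2% were lower. The list took 0.808% of leukocyte UMIs, or 1.29% without the 2 large AF75 barcodes, against 4.42% in barcodes of neither kind. INHBA, the inhibin beta A subunit, was at a ratio of 0.0889 (0.0596–0.128), CYP11A1, the enzyme that cleaves the cholesterol side chain, at 0.134 (0.102–0.173), and AREG, the epidermal growth factor ligand amphiregulin, at 0.0890 (0.0715–0.109). INHA was found in 24 of 24 leukocytes, with 1218 UMIs and a ratio of 0.226 (0.214–0.239), which came to −1.42 on the log2 scale without the 2 large AF75 barcodes against −2.14 with them, so that INHA was then no longer over 4-fold lower. The lowest ratios among genes of at least 200 CPM outside were those of DCLK1, a microtubule-associated kinase, GCG, the glucagon gene, MRO, SCG2, a secretogranin, and KIT, the receptor of KIT ligand, each with 1 to 7 UMIs in leukocytes, and the ratio of DCLK1 was 0.0185 (0.000468–0.103).

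In sum over all matched members, the MHC class II list had 2954 CPM in leukocytes against 13.7 in barcodes of neither kind, the neutrophil list 770.3 against 0.626, the Fc and complement receptor list 431 against 1.51, the cytokine and chemokine list 1271 against 18.2 and the cytotoxic list 300.4 against 2.62. The dendritic cell list had 551 CPM against 199.9. Their called members passed by leukocyte UMIs alone, so no count of them is given. The T cell, B cell and mast cell lists had 19, 21 and 11 UMIs in all, and no gene of theirs reached the minimum. Of 12 mitochondrial genes and 4 immediate early and stress genes compared, none was past 4-fold in either direction. Among the red cell lists, heme synthesis had 0 of 1 compared genes higher, the membrane list 1 of 1 lower, late erythroid genes 2 of 4 higher and red cell enzymes 1 of 11 higher, the higher ones all having passed by their own UMIs. Over all 2749 genes compared, 13% were higher and 8.4% lower. Theca, platelet and smooth muscle lists had 1 compared gene each, of which the smooth muscle gene RGS5 was lower, and the oocyte list had 1 UMI.

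The 24 barcodes were not 1 kind of cell by their genes, as the plot of leukocytes by gene shows. For description they were set in 3 groups after their values were seen: 13 with a C1Q UMI, 5 without one in which CST3, a secreted cysteine protease inhibitor, took at least 5% of UMIs, and 6 others.

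**Figure D5:**
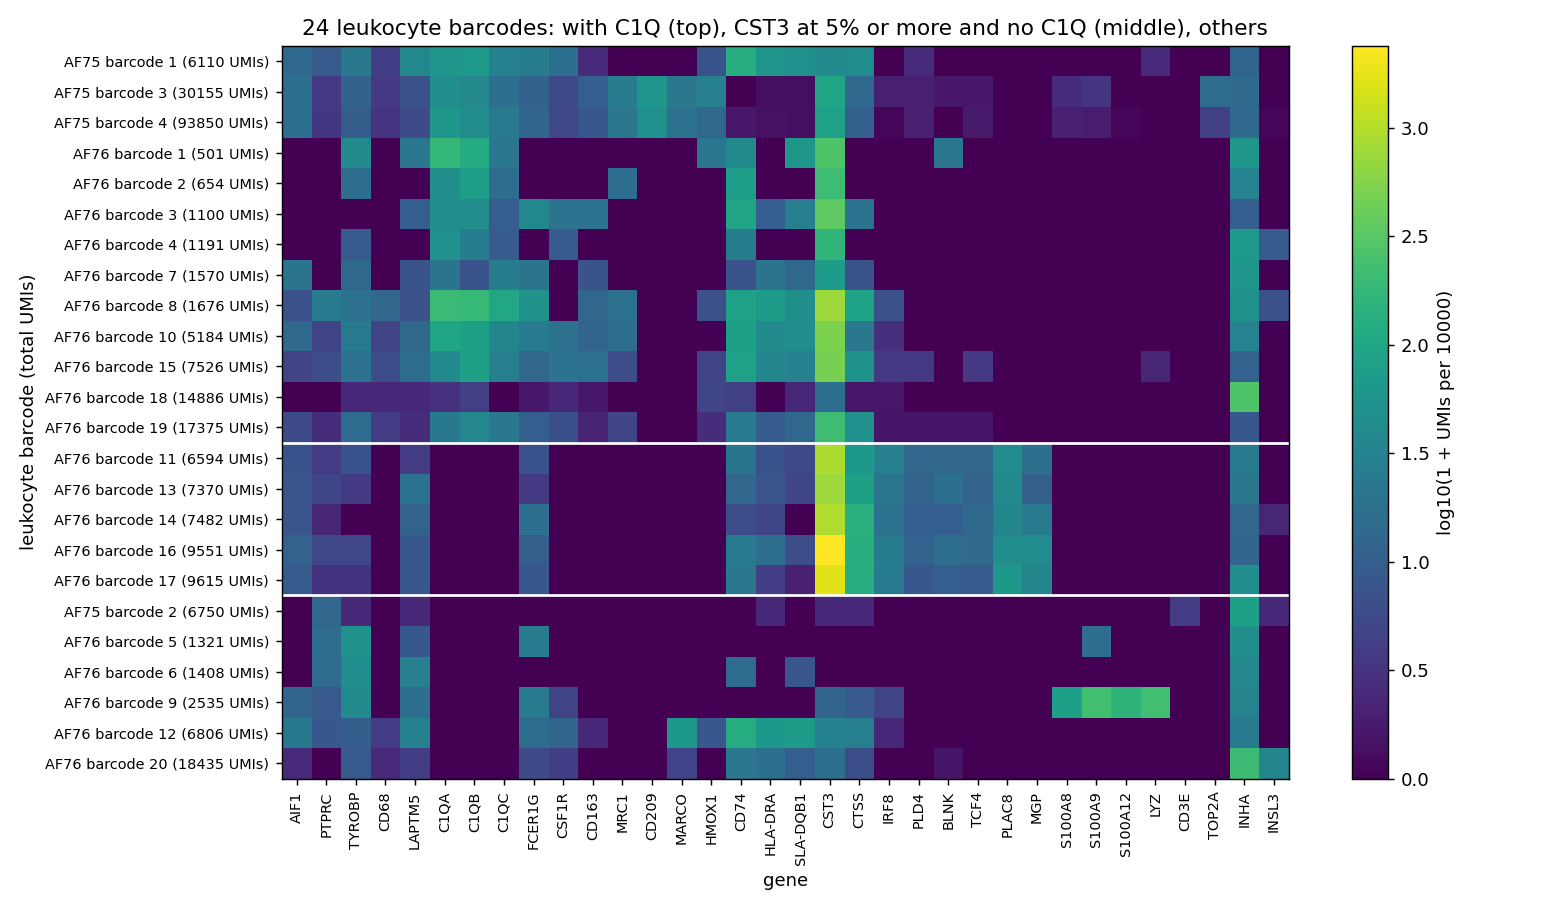
UMIs per 10000 of 34 genes, as log10 with 1 added, in each of 24 leukocyte barcodes (rows, with total UMIs), numbered by depth within a follicle; white lines part the 13 with a C1Q UMI, the 5 with CST3 at 5% or more, and 6 others. CD209 and TOP2A are seen in AF75 barcodes 3 and 4 only, and PLAC8 and MGP in the middle 5 only.

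Of the 13 leukocytes with C1Q, 3 were from AF75 and 10 from AF76. They held 2092 UMIs of the 3 C1Q genes, 1495 of them in the 2 large AF75 barcodes, which had 305 and 1190. Among the other 11, C1Q UMIs ran from 8 to 138 per barcode. MRC1, the mannose receptor, had 300 UMIs in 7 of these barcodes and no UMI in the other leukocytes.

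Those 2 AF75 barcodes stood apart from the other 11 with C1Q. CD209, a C-type lectin receptor, had 175 and 458 UMIs in them and 0 in every other leukocyte, against 34 UMIs in all barcodes of neither kind. They also held 62 and 161 UMIs of the scavenger receptor MARCO, 79 and 198 of MRC1, 87 and 121 of HMOX1, the heme oxygenase that opens the heme ring, and 1 and 15 of TIMD4, a receptor for dead cells. The genes of antigen display were scarce there: the MHC class II list had 6 and 20 UMIs, 0.0199% and 0.0213% of UMIs, against 0.0537% to 1.93% in the other 11. CD74, the invariant chain of MHC class II, had 0 and 6 UMIs in them, and 1 to 77 in each of the other 11. These barcodes had the most UMIs of all leukocytes.

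Genes of cell division were confined to the same pair among leukocytes, as far as these counts go. The proliferation list had 107 and 159 UMIs in them and 5 UMIs in the other 22 leukocytes together. TOP2A, the topoisomerase of dividing cells, had 44 and 31 UMIs and 0 elsewhere among leukocytes, and CENPF, a kinetochore protein, 41 in the pair and 0 elsewhere. In the leukocyte sum UBE2C, a ubiquitin enzyme of mitosis, was at a ratio of 5.00 (3.32–7.23) and TOP2A at 14.8 (11.6–18.6), and these ratios rested on the pair. All 4 compared genes of the proliferation list passed by their leukocyte UMIs alone and so had to be higher. The endothelial list behaved likewise, with 95 of 117 UMIs in the pair, of which EGFL7, a secreted vessel protein, was the only gene compared, at 10.3 (8.38–12.5). EGFL7 too passed by its leukocyte UMIs alone and so had to be higher. Whether either barcode held more than 1 cell was not tested.

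The other 11 with C1Q had 264 UMIs of CD74, 113 of HLA-DRA and 115 of SLA-DQB1, the latter 2 being chains of MHC class II. In 1 AF76 barcode of 17375 UMIs, genes of lipid handling stood out: FABP4, a fatty acid carrier, had 111 of its 112 leukocyte UMIs there, FABP5 172 of 268, and SPP1, the secreted phosphoprotein osteopontin, 317 of 406. Another AF76 barcode, of 14886 UMIs with 8 C1Q UMIs, held 418 UMIs of INHA, and 3.97% of its UMIs were from the granulosa list. A smaller one, of 1570 UMIs, had 37.4% mitochondrial UMIs, the highest of all members.

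The 5 barcodes with CST3 at 5% or more and no C1Q all came from AF76 and had 6594 to 9615 UMIs each. CST3 had 567, 609, 699, 1611 and 2283 UMIs in them, 7.69% to 23.9% of a barcode's UMIs, and these 5 held 5769 of the 8179 CST3 UMIs of leukocytes. They shared genes that other leukocytes mostly lacked. PLAC8 had 25 to 59 UMIs in each and 0 in the other 19, MGP, an inhibitor of calcification, 7 to 40 in each and 0 in the others, and CD4, the T cell and myeloid coreceptor, 2 to 8 in each and 0 in the others. The transcription factor IRF8 had 13 to 24 UMIs in each and TCF4 8 to 13, and the endolysosomal exonuclease PLD4 had 7 to 10 in each and the B cell adaptor BLNK 7 to 15. VPREB1, the surrogate light chain of precursor B cells, had 29 UMIs in 4 of the 5 and none in any other barcode of the series, so its level in leukocytes was at least 9396-fold higher than that of 3 counts in barcodes of neither kind.

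Macrophage receptors were not detected in the same 5: CSF1R, CD163, MRC1, CD14, CD68 and MARCO had 0 UMIs in all of them. FLT3, the receptor of a dendritic cell growth factor, had 5 UMIs in 3 of them and none in other leukocytes. Of the dendritic cell list 8 genes were matched and 4 had no UMI in any leukocyte. As few of its markers were detected, these barcodes are left without a cell type name.

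The 6 other leukocytes each had a pattern of their own. An AF76 barcode of 2535 UMIs held 57 UMIs of S100A9, 20 of S100A8, 40 of S100A12 and 57 of LYZ, the calcium-binding proteins and lysozyme of neutrophils and monocytes. It held 129 of the 200 UMIs that leukocytes had of the neutrophil list, of which 62 more were in the 2 large AF75 barcodes. An AF76 barcode of 6806 UMIs held 83 UMIs of CD74, 50 of SLA-DQB1, 42 of HLA-DRA and 42 of MARCO with no C1Q UMI. The AF75 barcode without C1Q, of 6750 UMIs, had 8 UMIs of PTPRC, 10 of CD52, 2 of CD3E and 2 of CD2, both T cell surface genes, together with 95 UMIs of CTSV, a cysteine protease, and 2.95% of UMIs from the granulosa list. In an AF76 barcode of 18435 UMIs, 376 UMIs of INHA and 64 of INSL3, a peptide hormone of theca cells, stood beside 27 UMIs of the rule genes. The last 2, AF76 barcodes of 1321 and 1408 UMIs, had 7 and 6 UMIs of TYROBP and 2 each of PTPRC.

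Granulosa genes made up 0.808% of leukocyte UMIs (0.774–0.844), with 0.115% to 3.97% per barcode and a median of 0.548%, against 4.42% in barcodes of neither kind. Only 3 leukocytes were above 2%, namely the INHA-rich AF76 barcodes of 14886 and 18435 UMIs and the AF75 barcode of 6750 UMIs. Together the other 21 were at 0.310%, with 1.34% at most. Among the leukocytes, the share in AF75 was 0.409% and in AF76 1.25%. The part of free RNA or of a second cell in these values was not tested.

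The 11 matched genes that handle iron and heme together had 4822 CPM in leukocytes against 868. Of 6 compared, 5 were over 4-fold higher, against 13% of all genes, but 4 of the 6 had passed by their leukocyte UMIs alone. HMOX1 was at a ratio of 58.2 (50.7–66.4), SLC40A1, the iron exporter ferroportin, at 24.2 (16.1–34.9), BLVRB, a biliverdin reductase, at 21.9 (16.8–28.1), SLC11A1, a metal carrier of the phagosome, at 7387 (2903–24046), and FTL at 5.38 (5.02–5.76). The pair of large AF75 barcodes held 838 of the 1252 UMIs of this list, and 208 of the 231 of HMOX1. Over all 24 leukocytes 1 globin UMI was counted, an HBB UMI in an AF76 barcode with 146 UMIs of the same list.

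Of the lysosomal and lipid genes 9 of 20 compared had passed by their leukocyte UMIs alone. Among the other 11, CTSD and CTSB, cathepsins of the lysosome, were over 4-fold higher, against 18 of 2055 such genes over all (0.876%). The median ratio was 1.22. Of the 4106 leukocyte UMIs of this list, the large AF75 pair held 2108 and the AF76 barcode of 17375 UMIs held 828. Cathepsin S, encoded by CTSS, an enzyme of antigen processing on the macrophage list, had 807 UMIs in 19 leukocytes, a ratio of 312 (288–338), and 458 of these UMIs lay in the 5 CST3-rich barcodes. NPC2, a lysosomal cholesterol carrier, was at 10.7 (8.72–13.01), APOE, the lipid carrier apolipoprotein E, at 13.8 (10.9–17.4) and LGMN, an asparagine-specific protease, at 35.8 (32.1–39.9). FOLR1, a folate receptor, had 409 UMIs in 17 leukocytes and none in the 5 CST3-rich ones, against 109 in barcodes of neither kind, a ratio of 3647 (2946–4548). CTSS, NPC2, APOE, LGMN and FOLR1 were all compared through their leukocyte UMIs alone and so had to be higher. Chemokine genes were concentrated in the large AF75 pair, with 188 of 215 UMIs of CCL2, a monocyte attractant, and 223 of 268 of CCL14. Among interferon-stimulated genes 3 were compared. BST2, the tether of enveloped particles, was at 678 (537–853), but it had passed by its leukocyte UMIs alone and so had to be higher. Of the other 2, IFI6 was at 4.61 (4.07–5.20) and ISG15 was not past 4-fold.

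The 20 genes of largest ratio found in at least 10% of leukocytes included MARCO at 22032 (12408–43168), S100A9 at 17982 (6734–67732), MMP9, a matrix protease, at 11178 (2762–97812), and PLD4 at 27216 (7191–230253), for which barcodes of neither kind had 12, 4, 2 and 2 UMIs. Each was found in 3 to 10 of 24 leukocytes, so none marked them all. All 20 genes were compared through their leukocyte UMIs alone and so had to be higher. Also among the 20 were MS4A7, MRC1, CD163, CCL3L1, SLC11A1, LYZ, CD300C, CD86, BLNK, CD4 and VPREB1, and 5 known by identifier only. CD86, a T cell costimulator, had 25 UMIs in 11 leukocytes and CD300C, an immune receptor, 65 in 14. The gene with most leukocyte UMIs outside mitochondrial and ribosomal protein genes was CST3, at a ratio of 54.2 (53.0–55.4), followed among named genes by TMSB4X, an actin-binding thymosin, with 3306 UMIs in 24 of 24 and a ratio of 4.94 (4.77–5.11), or 1.87 on the log2 scale without the 2 large AF75 barcodes against 2.30 with them, no longer past 4-fold.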

How the data were processed

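Single cell suspensions of 2 follicles were made into 10x Genomics 3′ libraries. The authors made the deposited counts with CellRanger 6.0.2 on Sscrofa11.1. The deposited values are whole UMI counts per gene and called barcode, unfiltered and not normalized. The annotation release is not given in the sources used here. The labels number the follicles 1 and 2, and only the submitters' names of the deposited matrices link these to AF75 and AF76. Libraries held 125409747 and 127414267 UMIs, and 500 to 95248 per barcode. Doublets were not scored, and no limit on genes or mitochondrial share was set.

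The members and lists were chosen with earlier results of these data known. Symbols came from the deposited gene list, and 1042 more from RefSeq names for Sscrofa11.1. UMIs were summed over a kind and both follicles. CPM of all genes but HBB, HBM, HBE1, HBQ1 and HBZ were compared with barcodes of neither kind. Genes that reached 20 UMIs only by their own counts in a kind were counted apart. HBB levels and shares used all UMIs. Intervals are exact Poisson (CPM), Clopper-Pearson (shares) and exact conditional (ratios) at 95%. A count of 0 was set to 3 for bounds. As there was 1 library per follicle, no p-value is given. The code was tested on simulated data. Named genes were the rule genes and globins, the 20 of largest ratio in at least 10% of a kind, the 5 of lowest ratio at 200 CPM or more, the 10 with most UMIs without mitochondrial and ribosomal protein genes, and members of 29 lists. Genes named for single leukocytes, for barcodes rich in CST3 and outside these rules (CD209, CCL14, FOLR1, LGMN, MGP, PLAC8, TCF4, TIMD4) were chosen after their values were seen. Promoters are RefSeq, Sscrofa11.1. Alternatives were other limits of the rule, other filters, totals and averages, and each follicle alone, with 3 more added after the data were seen: ENSSSCG00000007978 left out of the totals, ENSSSCG00000007978 counted with HBB in the rule, and leukocytes without the 1 or 2 largest AF75 barcodes. Python 3.11.15, numpy 2.4.6, scipy 1.17.1, pandas 2.3.3 and matplotlib 3.10.9 were used.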

Additional observations from a re-analysis of the deposited data

How the results depend on the processing

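No paired analysis was possible because each follicle gave 1 library and no test between groups was made. The number of leukocytes, 24, was 11 with at least 20 UMIs of the 8 genes, 11 within the study's limits, and 4 to 20 in single follicles. With limits of 5 UMIs, 2 genes or 4 genes it was 36, 31 and 20. The number of red cells, 43, was 5 with HBB over 75%, 0 within the limits, 8 to 35 in single follicles, 58 with HBB over 25%, and 51 with ENSSSCG00000007978 counted with HBB. The 357 genes over 4-fold higher in leukocytes became 1014 with a minimum of 5 UMIs, 130 with 50, 196 without the AF75 barcode of most UMIs, 146 without the 2 largest, and 136 to 253 in single follicles. The 9 genes in red cells became 28 with 5 UMIs, 15 with ENSSSCG00000007978 left out, and 4 to 8 in single follicles. A smaller minimum tests more genes by construction, and the cause of the other moves was not tested. The granulosa share of leukocytes, 0.808%, was 0.548% as a median per barcode, 0.983% without mitochondrial and ribosomal protein genes, 1.11% and 1.29% without the 1 or 2 largest AF75 barcodes, and 0.409% to 1.25% in single follicles. That of red cells, 0.896%, was 0.977% as a median, 2.93% with ENSSSCG00000007978 left out, and 0.884% to 0.968% in single follicles. HBB in barcodes of neither kind, 85.3 CPM, was 23.8 within the limits, 248 as a mean per barcode, 25.3 with red cells set at 25%, and 13.2 to 156 in single follicles. Over 557 values of named genes under these settings, 331 stayed within their counting interval and 226 moved beyond it. Change of direction was counted only for genes past 4-fold with the main settings, and 0 of their values changed it. Smaller ratios did change direction: with ENSSSCG00000007978 left out, KXD1 in red cells went from 0.867 to 2.83 and RPL6 from 0.747 to 2.44.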

Other observations

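Barcodes with several T cell genes lay mostly outside the leukocytes as chosen. Barcodes with several cytotoxic genes lay outside and, with fewer UMIs of these genes, among the leukocytes. Among barcodes of neither kind, 13, of which 2 were from AF75 and 11 from AF76, held at least 3 genes of the T cell list, whereas 2 leukocytes did. Each of the 13 had a UMI of a CD3 gene, a part of the T cell receptor complex, but the CD3 genes belong to the list that chose them. At least 3 genes of the cytotoxic list were held by 5 leukocytes and by 7 of these 13 barcodes. Each of these 5 leukocytes had 3 to 21 UMIs of the list, and each of the 7 barcodes 24 to 78. Of the 13 barcodes, GZMB, a granzyme of killer cells, was found in 10, CCL5, a chemokine, in 8, NKG7, a granule protein, in 6 and GNLY, a pore-forming granule protein, in 6 with up to 44 UMIs. No leukocyte had a UMI of GZMB or GNLY. The 13 barcodes had 1183 to 27192 UMIs with a median of 2467, and 1 was within the study's limits. Those of 13162 and 27192 UMIs had 3.59% and 3.90% of UMIs from the granulosa list, and the rest 0.207% to 2.22%. PTPRC was not detected in 2 of them, and TYROBP had 5 UMIs over all 13. Of the 8 barcodes of neither kind with at least 10 UMIs of the rule genes but fewer than 3 of them detected, 7 were among these 13. Within the leukocytes the T cell list had 19 UMIs and the B cell list 21. These barcodes were set together after their values were seen.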
